A study of Mus musculus with 12 samples.

Results

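The genes described here encode the Wnt ligands, their Frizzled receptors and LRP co-receptors, the R-spondins, the secreted Wnt antagonists, and the intracellular pathway genes Axin2 and Tcf7l2. They were picked by gene symbol from a table of read counts of mouse interscapular brown fat: every symbol that begins with Wnt, Fzd, Sfrp, Dkk or Rspo followed by a digit, together with Lrp5, Lrp6, Wif1, Frzb, Axin2 and Tcf7l2. This gave 47 of the 38924 genes in the table, of which 28 were expressed highly enough to be tested among 14870 genes. All mice were wild-type C57BL/6J animals aged 14 weeks that had spent the last 4 weeks, from the age of 10 weeks, at 30 °C (thermoneutrality for a mouse), at 22 °C (mild cold) or at 6 °C (severe cold), with 4 mice and 1 RNA sequencing library per mouse at each temperature. The labels name no other treatment or allele.

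Wnt proteins are lipid-modified secreted signals that bind Frizzled receptors on the cell surface. When a Wnt also engages LRP5 or LRP6, the destruction complex that contains Axin is inhibited, beta-catenin accumulates, and TCF/LEF factors switch on target genes; other Wnts, such as Wnt5a and Wnt11, mostly signal without beta-catenin. R-spondins bind LGR receptors and remove the ubiquitin ligases ZNRF3 and RNF43, which otherwise clear Frizzled and LRP from the membrane. The SFRP proteins, WIF1 and FRZB trap Wnts outside the cell, and most DKK proteins block LRP5 and LRP6. In adipose tissue, beta-catenin signalling is best known as a brake on the formation of fat cells from their precursors.

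Promoter sequences are shown for the gene with the largest rise in the cold (Rspo4), for a ligand that fell (Wnt11) and for an antagonist that was highest at the middle temperature (Sfrp5). Each is the 250 bases before the transcription start in RefSeq (GRCm38.p6), written 5′ to 3′ on the strand of the gene. The windows are chr2:151842677-151842926 on the plus strand for Rspo4, chr7:98834862-98835111 on the plus strand for Wnt11 and chr19:42202253-42202502 on the minus strand for Sfrp5. Capitals mark every match, on either strand, to 6 motifs: the TCF/LEF core CTTTGA, the cAMP response element half-site TGACG, the E-box CACGTG, the AP-1 site TGANTCA, the nuclear receptor half-site AAGGTCA and the TATA box TATAAA.
Rspo4: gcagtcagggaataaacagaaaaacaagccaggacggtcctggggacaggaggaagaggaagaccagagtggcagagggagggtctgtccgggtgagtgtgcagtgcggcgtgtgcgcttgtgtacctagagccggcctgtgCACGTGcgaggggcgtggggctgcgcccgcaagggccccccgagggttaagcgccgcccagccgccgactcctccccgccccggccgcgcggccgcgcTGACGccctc
Wnt11: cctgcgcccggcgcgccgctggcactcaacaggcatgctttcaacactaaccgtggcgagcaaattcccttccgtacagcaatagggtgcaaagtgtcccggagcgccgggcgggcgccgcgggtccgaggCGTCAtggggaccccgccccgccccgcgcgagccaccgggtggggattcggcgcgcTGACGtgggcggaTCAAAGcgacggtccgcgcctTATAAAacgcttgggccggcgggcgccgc
Sfrp5: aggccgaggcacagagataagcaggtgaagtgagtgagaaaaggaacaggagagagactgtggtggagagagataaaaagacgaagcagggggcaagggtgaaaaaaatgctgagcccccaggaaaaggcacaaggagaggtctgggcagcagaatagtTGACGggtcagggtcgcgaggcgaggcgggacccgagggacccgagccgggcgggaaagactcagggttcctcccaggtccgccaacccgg
The Rspo4 window holds an E-box whose first base lies 108 bases before the start and a cAMP half-site 10 bases before it. The Wnt11 window holds 2 cAMP half-sites, at 119 (as CGTCA, the opposite strand) and 63 bases before the start, a TCF/LEF core (as TCAAAG) at 50 and a TATA box at 29. The Sfrp5 window holds 1 cAMP half-site, 91 bases before the start. The window of Axin2 (chr11:108920099-108920348, plus strand) was also searched. It held 0 matches and is not printed. No match overlaps another. Such matches are common: among 32851 promoter windows of the same length, the cAMP half-site was found in 17.8%, the TCF/LEF core in 13.8%, the TATA box in 12.4%, the AP-1 site in 6.75%, the E-box in 6.02% and the nuclear receptor half-site in 4.08%. They describe the letters and are not evidence of binding.

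The libraries held between 18290162 and 32513051 counts, except 86438386 in 22 °C mouse 3. For 10 libraries the column could be matched to a numbered mouse. The other 2 carry only the letter of the 30 °C group and are called 30 °C mice A and B. Values are CPM (counts scaled to a common library size, with TMM factors) unless a per-kilobase scale is named. Genes of brown fat were abundant at every temperature. Ucp1, the uncoupling protein of thermogenesis, lay between 692 and 2048 CPM at 30 °C, between 1967 and 4461 CPM at 22 °C and between 9654 and 11950 CPM at 6 °C. Cidea, a lipid droplet protein abundant in brown fat, lay between 1328 and 2906 CPM over all libraries. Adipoq, which encodes adiponectin and marks fat cells in general, lay between 957 and 1214 CPM at 30 °C, 1009 and 1238 CPM at 22 °C and 549 and 672 CPM at 6 °C. The tissue also held other cells. The 15 skeletal muscle markers summed to 5371 CPM in 30 °C mouse 1 and 3895 CPM in 22 °C mouse 4, and to between 38.6 and 1962 CPM in the other libraries. The 15 fibroblast and preadipocyte markers summed to between 2908 and 5491 CPM at 30 °C, 1166 and 1705 CPM at 22 °C and 1005 and 1247 CPM at 6 °C, and 13 of the 15 fell at 6 °C against 30 °C. The 12 macrophage markers summed to between 529 and 1683, 150 and 213, and 240 and 466 CPM in the same order, and 10 of them fell at 6 °C against 30 °C. By the rule for changed genes given below, 31.5% of all tested genes fell in that comparison. No marker of these lists was at 0 in all libraries.

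From 30 to 6 °C, the main changes in this gene set were a rise of the R-spondin Rspo4 from almost no reads, a rise of the minor receptor Fzd3 and of the co-receptor Lrp5, and a fall of the ligand Wnt11, of 4 other Frizzled receptors, of the antagonists Sfrp1, Dkk3 and Dkk2 and of Tcf7l2. Changed genes are those with an adjusted p under 0.05 in edgeR's quasi-likelihood test, with the adjustment running over all 14870 genes. By this rule, 12 of the 28 tested genes changed at 6 °C against 30 °C (42.9%), 3 upward and 9 downward, where 56.8% of all tested genes changed, 25.3% upward and 31.5% downward. At 22 °C against 30 °C, 7 changed (25.0%, against 44.6% of all tested genes), 3 upward (all genes 21.8%) and 4 downward (all genes 22.8%). At 6 °C against 22 °C, 10 changed (35.7%, against 34.2%), 3 upward (all genes 16.9%) and 7 downward (all genes 17.4%). The step from 22 to 6 °C differed from the step from 30 to 22 °C for 5 genes (17.9%, against 29.3%), upward for 2 and downward for 3. The share of Wnt genes that changed was thus below that of all genes in the comparisons with 30 °C and close to it from 22 to 6 °C. Their median log2 fold change at 6 °C against 30 °C was −0.43, against −0.11 over all tested genes. With libraries scaled by total counts alone, the median of all genes shifts by −0.32 in this comparison and 2 Wnt genes rose and 16 fell. The samples are bulk tissue, so fewer cells of a type and less RNA per cell cannot be told apart.

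**Figure D1:**
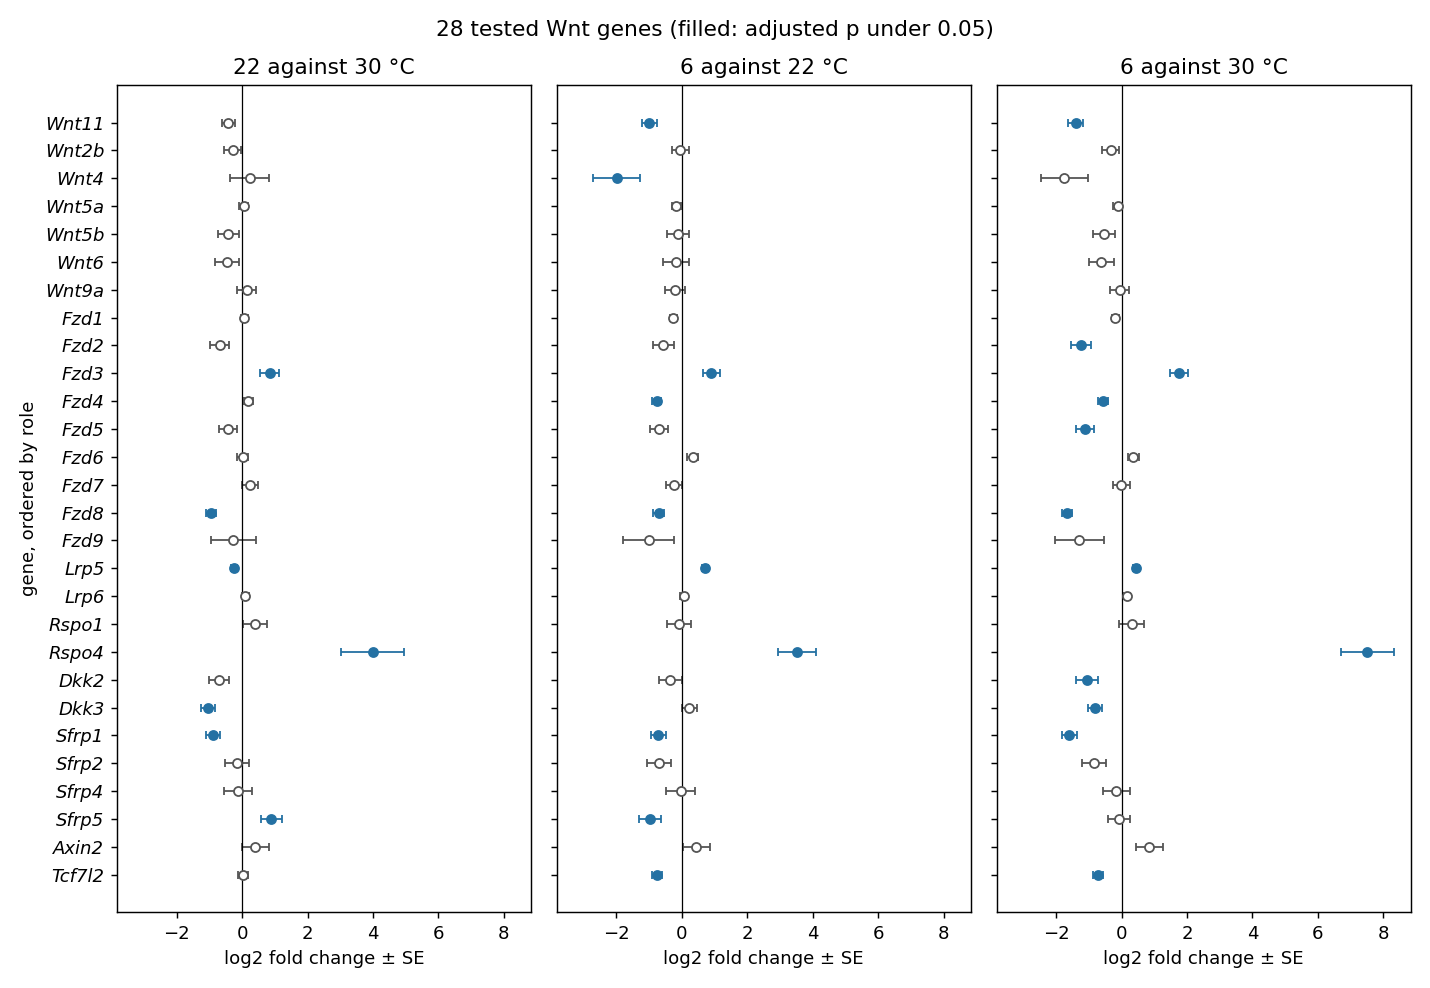
Log2 fold change ± standard error (x axis) of each of the 28 tested Wnt genes (y axis, ordered by role) at 22 against 30 °C, 6 against 22 °C and 6 against 30 °C, from edgeR's quasi-likelihood fit to 12 libraries. Filled points passed an adjusted p of 0.05: 7, 10 and 12 genes in the 3 panels, with Rspo4 far to the right of all others in each.

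Among the 19 Wnt ligands, 7 were tested and Wnt5a and Wnt11, both known mainly for signalling without beta-catenin, made up most of the ligand RNA. Per kilobase of exon, the ligands summed to 6.39 ± 0.878 CPM per kilobase at 30 °C, 5.83 ± 0.832 at 22 °C and 4.31 ± 0.382 at 6 °C (SD, n = 4 each). Wnt5a took 38.0% ± 2.65 of this sum at 30 °C, 43.7% ± 6.47 at 22 °C and 52.1% ± 4.12 at 6 °C. Wnt11 took 35.6% ± 3.83, 28.6% ± 6.13 and 19.5% ± 3.41. The rise in the share of Wnt5a came with little movement of its own level: its means were 19.1 ± 3.48, 19.8 ± 3.03 and 17.5 ± 1.40 CPM, and its log2 fold change at 6 °C against 30 °C was −0.12 (SE 0.14, edgeR adjusted p = 0.45).

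Wnt11 (chr7:98835112-98855195, plus strand) measured 9.55, 9.12, 8.87 and 9.70 CPM at 30 °C in mice 1, 2, A and B. At 22 °C it measured 6.33, 6.14, 5.07 and 10.4 CPM in mice 1 to 4. At 6 °C it measured 3.04, 4.71, 2.97 and 3.25 CPM. The 30 °C mice lay close together, 22 °C mouse 4 lay above all of them, and all 6 °C mice lay below every other library. Wnt11 fell by 1.41 on the log2 scale from 30 to 6 °C (SE 0.21, edgeR adjusted p = 1.15e-04) and by 0.99 from 22 to 6 °C (SE 0.22, adjusted p = 0.00387). Its difference at 22 °C against 30 °C was −0.42 (SE 0.21, adjusted p = 0.119). Of its exon bases, 8.80% lie under a gene on the opposite strand, and whether the counting used strand is not given in the sources used here.

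Wnt4, a ligand best known from kidney and gonad development, was low. It ranged from 0.330 to 1.56 CPM at 30 °C, from 0.643 to 1.12 CPM at 22 °C and from 0 to 0.568 CPM at 6 °C. The library with 0 counts, 6 °C mouse 3, allows a level of up to 0.106 CPM, which covers counting error only. Wnt4 fell from 22 to 6 °C by 1.99 on the log2 scale (SE 0.71, edgeR adjusted p = 0.046), with no overlap of the ranges. This call was lost without any 1 of 30 °C mice 2 and B, 22 °C mice 1 to 4 and 6 °C mice 2, 3 and 4 (adjusted p from 0.055 to 0.126), and with the muscle marker level as a covariate (−1.39, adjusted p = 0.0515). The other 5 tested ligands did not change in any pair of temperatures: Wnt5a, Wnt9a (group means from 1.63 to 1.90 CPM), Wnt2b (0.878 to 1.09 CPM), Wnt5b (0.431 to 0.633 CPM) and Wnt6 (0.350 to 0.531 CPM).

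The Frizzled receptors were the most abundant family per kilobase, and Fzd4, the receptor through which norrin and several Wnts act on blood vessels, was the leading member. Summed over 10 genes they reached 37.2 ± 7.44 CPM per kilobase at 30 °C, 39.0 ± 3.21 at 22 °C and 27.8 ± 1.28 at 6 °C. Fzd4 took 51.02% ± 3.80 of the sum at 30 °C, 55.7% ± 1.80 at 22 °C and 45.7% ± 3.55 at 6 °C. The order below it changed with temperature. Fzd7 came next in all groups (15.0% ± 3.70, 17.0% ± 2.29 and 20.4% ± 3.18), while Fzd8 went from 8.69% ± 2.84 at 30 °C to 3.55% ± 0.634 at 6 °C and Fzd6 from 7.87% ± 1.71 to 13.1% ± 2.96.

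Fzd4 (chr7:89404355-89413134) measured 157, 144, 91.5 and 119 CPM at 30 °C, in mice 1, 2, A and B. Its levels were 145, 136, 168 and 135 CPM at 22 °C and 72.7, 94.6, 92.0 and 83.2 CPM at 6 °C. All 6 °C mice lay below all 22 °C mice, whereas 30 °C mouse A lay within the range of the 6 °C group. Fzd4 fell by 0.77 on the log2 scale from 22 to 6 °C (SE 0.15, edgeR adjusted p = 0.00208) and by 0.58 from 30 to 6 °C (SE 0.15, adjusted p = 0.00523). From 30 to 22 °C its difference was 0.19 (SE 0.15, adjusted p = 0.319). The step from 22 to 6 °C differed from the step from 30 to 22 °C by −0.96 (SE 0.25, adjusted p = 0.013). The 12 endothelial markers, whose cell type is a main site of Fzd4 expression, summed to between 1584 and 1942 CPM at 30 °C, 1109 and 1235 CPM at 22 °C and 1284 and 1387 CPM at 6 °C. Of these markers, 8 fell and 1 rose from 30 to 6 °C (31.5% and 25.3% of all tested genes), with a median log2 difference of −0.62. From 30 to 22 °C, 10 fell and 0 rose, also in DESeq2 and limma voom and at an unadjusted p under 0.05. Over all tested genes, edgeR called 22.8% lower and 21.8% higher in that step. From 22 to 6 °C, 3 markers rose and 1 fell (16.9% and 17.4% of all tested genes). None was at 0 in all libraries, and their part in the Fzd4 levels was not tested.

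Fzd8 showed the smallest adjusted p among the members at 6 °C against 30 °C. It measured 18.7, 20.8, 21.8 and 13.2 CPM at 30 °C, then 9.80, 10.6, 9.50 and 8.49 CPM at 22 °C and 6.66, 4.75, 5.87 and 6.19 CPM at 6 °C. The 3 groups did not overlap, and 30 °C mouse B was the lowest of its group. It fell by 0.96 on the log2 scale from 30 to 22 °C (SE 0.15, edgeR adjusted p = 3.21e-04), by 0.71 from 22 to 6 °C (SE 0.16, adjusted p = 0.00422) and by 1.67 from 30 to 6 °C (SE 0.16, adjusted p = 2.5e-06).

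Fzd5 and Fzd2, receptors of the beta-catenin pathway and of Wnt5a signalling, fell between the outer temperatures. Fzd5 measured 15.0, 9.004, 6.02 and 8.82 CPM at 30 °C, 7.72, 4.83, 7.48 and 8.71 CPM at 22 °C and 5.28, 3.28, 5.66 and 3.62 CPM at 6 °C. The 22 °C mice overlapped both other groups, and 30 °C mouse 1 stood highest. The change from 30 to 6 °C was −1.12 on the log2 scale (SE 0.28, edgeR adjusted p = 0.00441). Of the Fzd5 exon bases, 17.8% lie under a gene on the opposite strand. Fzd2 measured 3.12, 1.61, 2.04 and 2.05 CPM at 30 °C, 1.48, 1.01, 1.79 and 1.06 CPM at 22 °C and 1.06, 1.24, 0.885 and 0.472 CPM at 6 °C. Its 30 and 6 °C ranges did not overlap, with a change of −1.25 (SE 0.30, adjusted p = 0.00341).

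Fzd3, a receptor of planar cell polarity best known for guiding axons, was the only Frizzled called higher in the main fit. It measured 0.915, 0.884, 0.420 and 0.504 CPM at 30 °C, 0.792, 1.13, 1.60 and 1.19 CPM at 22 °C and 2.35, 2.24, 2.48 and 1.99 CPM at 6 °C. All 6 °C mice lay above every other library, while 22 °C mouse 1 lay within the range at 30 °C. The rise was 1.75 on the log2 scale from 30 to 6 °C (SE 0.28, edgeR adjusted p = 1.76e-04) and 0.90 from 22 to 6 °C (SE 0.27, adjusted p = 0.0199). The latter reached an adjusted p of 0.0508 without 22 °C mouse 1. At 22 °C against 30 °C the value was 0.84 (SE 0.29, adjusted p = 0.0281), which was lost without 30 °C mouse A (0.66, adjusted p = 0.0787), without 30 °C mouse B (0.72, adjusted p = 0.0848), without both (0.43, adjusted p = 0.291) and without 22 °C mouse 3 (0.61, adjusted p = 0.118). It was also lost with total-count scaling (0.59, adjusted p = 0.0983). Per kilobase, Fzd3 stayed a minor receptor, at 0.637% ± 0.0563 of the Frizzled sum at 6 °C.

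Fzd1, Fzd6, Fzd7 and Fzd9 did not change in any pair. Fzd1 came closest, with 13.7 to 15.7 CPM at 6 °C below the 17.2 to 18.3 CPM at 22 °C and a log2 difference of −0.26 (SE 0.11, edgeR adjusted p = 0.0733). Fzd7 ranged from 19.3 to 42.5 CPM over all libraries and Fzd6 from 11.2 to 20.5 CPM. For Fzd6 the log2 difference at 6 °C against 30 °C was 0.36 (SE 0.17, edgeR adjusted p = 0.0831), with overlapping ranges. Fzd9 stayed at 0.880 CPM or less, except 2.17 CPM in 30 °C mouse 1. That mouse had the most skeletal muscle marker RNA. It was the highest of the 30 °C group for 18 of the 28 tested members. The share over all tested genes was not counted, so this may be a trait of the whole library. In the plot against the muscle markers it also stood highest of all libraries for Wnt4, Fzd7 and Wnt9a. The plotted genes are those in which this mouse stood apart above its group, so its place there follows from the choice. The library with the next most muscle marker RNA, 22 °C mouse 4 (3895 CPM), was highest of its group for Fzd9 and Wnt9a. It was not highest for Fzd7 or Wnt4. The part of muscle RNA in these levels was not tested. None of the 15 muscle markers passed edgeR's test between 30 and 6 °C, and none reached an unadjusted p of 0.05. DESeq2 called none and limma voom called 1, downward.

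**Figure D2:**
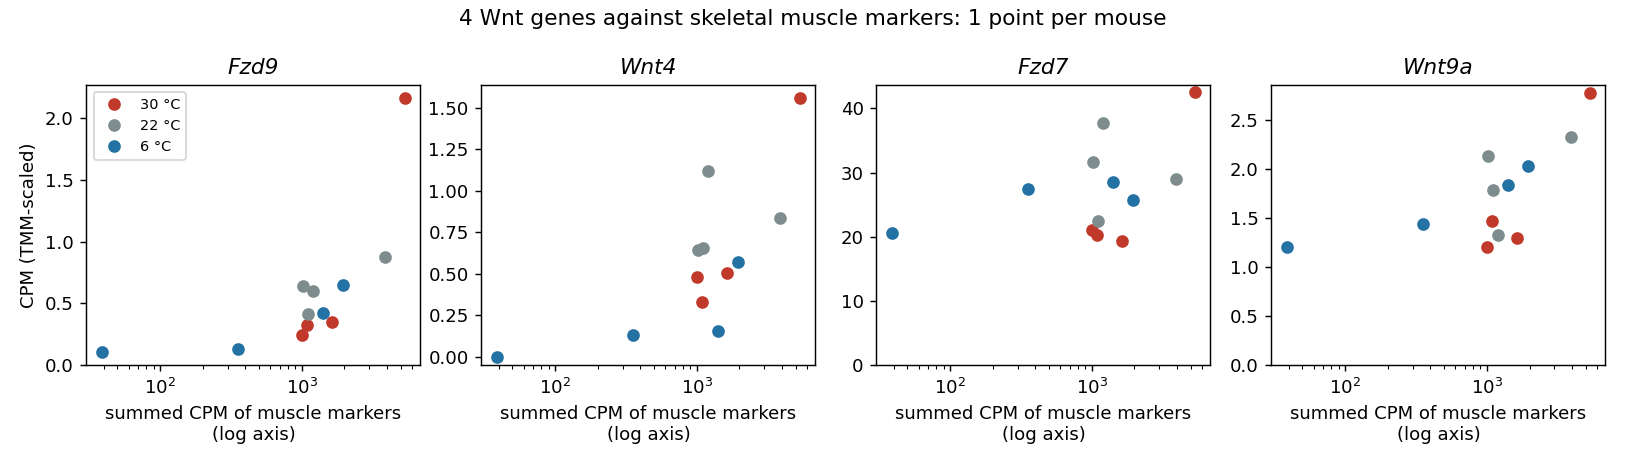
Level of Fzd9, Wnt4, Fzd7 and Wnt9a (y axis, TMM-scaled CPM) against the summed level of 15 skeletal muscle markers (x axis, CPM, log scale), with 1 point per mouse coloured by temperature. These 4 genes were chosen after their values were seen. They are the ones in which 30 °C mouse 1 stood apart above its group by Dixon's criterion. The point of 30 °C mouse 1, at 5371 CPM of muscle markers, is the highest in every panel, and its place above its group follows from that choice.

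**Figure D3:**
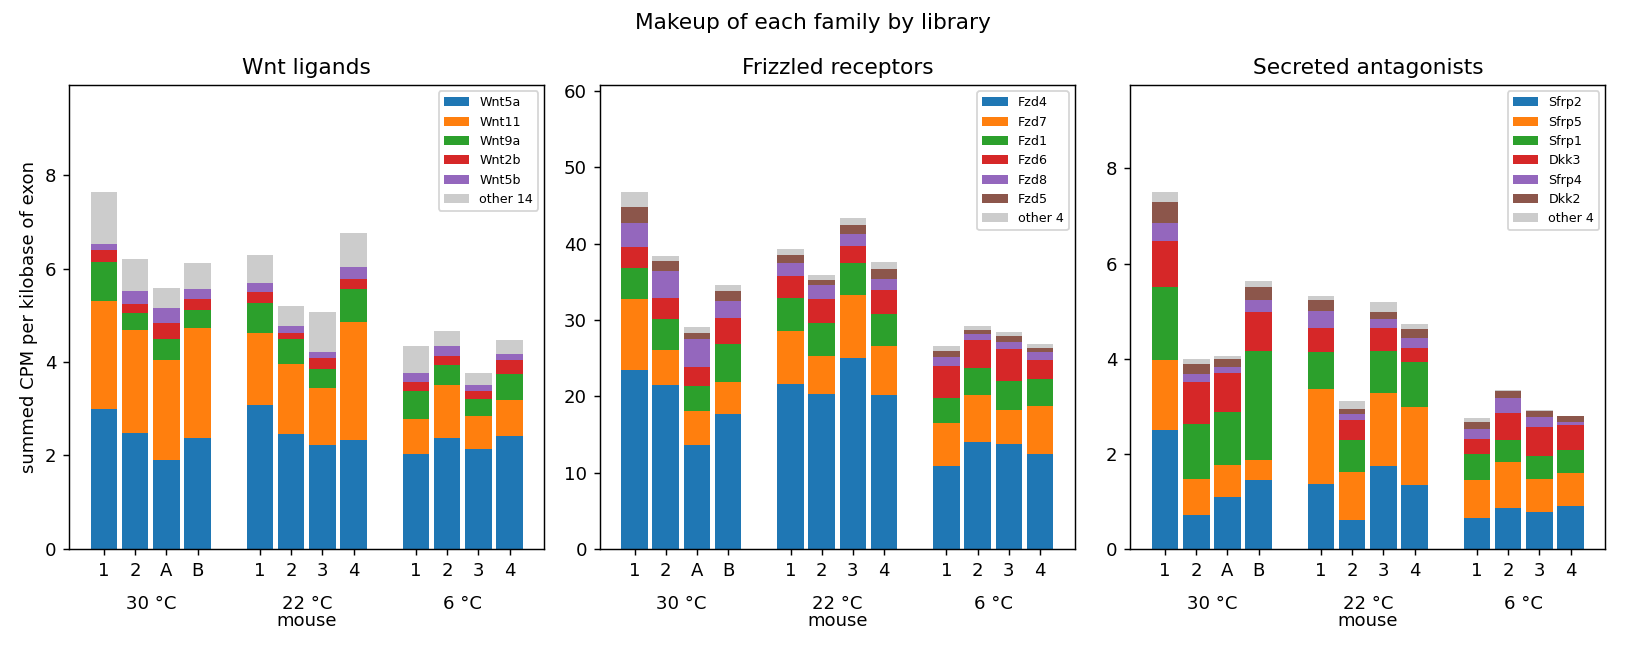
Summed CPM per kilobase of exon (y axis) of the 19 Wnt ligands, 10 Frizzled receptors and 10 secreted antagonists in each of the 12 libraries (x axis), with coloured segments for the leading genes and grey for the rest. The Wnt11 segment (orange, left) shrinks from a mean of 35.6% of the ligands at 30 °C to 19.5% at 6 °C, Fzd4 (blue, middle) is the tallest segment in every library, and the antagonist sum has its lowest mean at 6 °C (2.96 CPM per kilobase, bars from 2.76 to 3.35), where its range overlaps that at 22 °C (3.12 to 5.31).

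Of the co-receptors, Lrp5 passed the test in each pair of temperatures and Lrp6 in none, and the difference between these genes was not tested. Lrp5 (chr19:3584828-3686564), which bears the same signal as Lrp6 and is known for its control of bone mass, measured 52.6, 62.0, 62.6 and 65.9 CPM at 30 °C. Its levels were 54.4, 44.8, 49.4 and 55.3 CPM at 22 °C and 83.4, 74.3, 83.9 and 89.2 CPM at 6 °C. All 6 °C mice lay above all others, and the 22 °C range overlapped that at 30 °C. Lrp5 rose by 0.70 on the log2 scale from 22 to 6 °C (SE 0.091, edgeR adjusted p = 1.42e-04) and by 0.44 from 30 to 6 °C (SE 0.090, adjusted p = 0.00104). With total-count scaling the latter was 0.12 (adjusted p = 0.301). From 30 to 22 °C it fell by 0.25 (SE 0.090, adjusted p = 0.0353). That call was lost without any 1 of 30 °C mice 2, A and B and 22 °C mice 2 and 3 (adjusted p from 0.0747 to 0.107), as well as with RLE scaling (adjusted p = 0.0592) and DESeq2 (adjusted p = 0.0563). The difference of the steps was 0.95 (SE 0.16, adjusted p = 0.00129). Lrp6 had means of 91.2 ± 9.42, 97.5 ± 9.54 and 102 ± 15.1 CPM, a log2 difference of 0.16 at 6 °C against 30 °C (SE 0.11, adjusted p = 0.244). Summed per kilobase, the co-receptors stood at 12.9 ± 0.507, 12.4 ± 1.06 and 15.9 ± 1.40 CPM per kilobase at 30, 22 and 6 °C, but with total-count scaling the means at 30 and 6 °C were 14.8 and 14.6.

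Rspo4 (chr2:151842927-151874668, plus strand), the R-spondin known for its part in nail formation, showed the largest change of all members. It had 3, 1, 0 and 1 counts at 30 °C in mice 1, 2, A and B. At 22 °C it had 27, 17, 19 and 15 counts in mice 1 to 4, and at 6 °C 109, 302, 124 and 283 counts. On the CPM scale these are at most 0.102 at 30 °C, 1.34, 1.01, 0.224 and 0.660 at 22 °C, and 4.43, 10.1, 4.39 and 14.9 at 6 °C. The 3 groups did not overlap. The spread within the cold groups was wide: at 6 °C mice 2 and 4 lay more than 5 CPM above mice 1 and 3, and at 22 °C the deepest library, mouse 3, was the lowest.

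Pooled over 4 libraries, Rspo4 stood at 0.0418 CPM at 30 °C (exact Poisson 95% interval 0.0136 to 0.0976, counting error only), 0.540 CPM at 22 °C and 8.03 CPM at 6 °C. The pooled level at 6 °C was 192 times that at 30 °C, and 82.2 times its upper limit. At 22 °C it was 12.9 times the level at 30 °C and 5.53 times that limit. Leaving out 1 library at a time, these ratios to the level at 30 °C ranged from 138 to 361 at 6 °C and from 9.30 to 24.3 at 22 °C. The former was 361 without 30 °C mouse 1. The latter was 24.3 without 30 °C mouse 1 and 23.6 without 22 °C mouse 3. These leave-outs of the pooled ratios were added after the data were seen. The fitted log2 fold changes, which depend on the prior count where counts are this few, were 7.51 from 30 to 6 °C (SE 0.82, edgeR adjusted p = 1.6e-05), 3.99 from 30 to 22 °C (SE 0.95, adjusted p = 0.00522) and 3.52 from 22 to 6 °C (SE 0.59, adjusted p = 0.00108). Without 30 °C mice A and B together, the value from 30 to 22 °C was 3.22 (adjusted p = 0.0887). With the mouse number as a block it was 3.38 (adjusted p = 0.0507). When only 30 and 22 °C were fitted, the filter on low counts removed Rspo4. Its test between these temperatures thus exists only because the 6 °C libraries carried the gene through the filter. Rspo4 made up most of the R-spondin RNA at 6 °C: it stood at 3.56 CPM per kilobase within a sum of 3.89 ± 2.12 over 4 genes, compared with 0.0183 within 0.475 ± 0.193 at 30 °C.

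Rspo1, which supports stem cells in several epithelia, did not change (means from 0.415 to 0.560 CPM). Rspo3, an R-spondin of blood vessels, and Rspo2 were below the filter. Rspo3 ranged from 0.210 to 1.10 CPM at 30 °C and from 0.0812 to 0.354 CPM at 6 °C. Rspo2 had no count at 6 °C, which allows up to 0.0295 CPM over that group.

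The receptors of the R-spondins were examined next to Rspo4. Lgr6 measured 13.6, 33.0, 42.0 and 25.7 CPM at 30 °C, 29.2, 30.4, 5.52 and 36.8 CPM at 22 °C and 102, 84.6, 121 and 103 CPM at 6 °C. All 6 °C mice lay above every other library, and 22 °C mouse 3, which was also lowest of its group for Rspo4, lay far below the others. The log2 fold change was 1.85 from 30 to 6 °C (SE 0.51, edgeR adjusted p = 0.0114), 2.03 from 22 to 6 °C (SE 0.52, adjusted p = 0.0139) and −0.18 from 30 to 22 °C (SE 0.51, adjusted p = 0.801). Lgr4 behaved otherwise, with its highest values at 22 °C: 18.4 to 22.9 CPM at 30 °C, 27.0 to 46.7 CPM at 22 °C and 20.6 to 26.0 CPM at 6 °C. It rose by 0.76 from 30 to 22 °C (SE 0.15, adjusted p = 0.00106) and fell by 0.67 from 22 to 6 °C (SE 0.15, adjusted p = 0.00403), and the difference of the steps was −1.44 (SE 0.25, adjusted p = 0.00151). Znrf3, the ubiquitin ligase that R-spondins remove, had means of 7.28 ± 0.937, 9.88 ± 0.463 and 14.1 ± 2.00 CPM and rose by 0.95 from 30 to 6 °C (SE 0.12, adjusted p = 3.21e-05). Lgr5 and Rnf43 were below the filter. Lgr6 and Lgr4 were singled out after their values were seen.

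**Figure D4:**
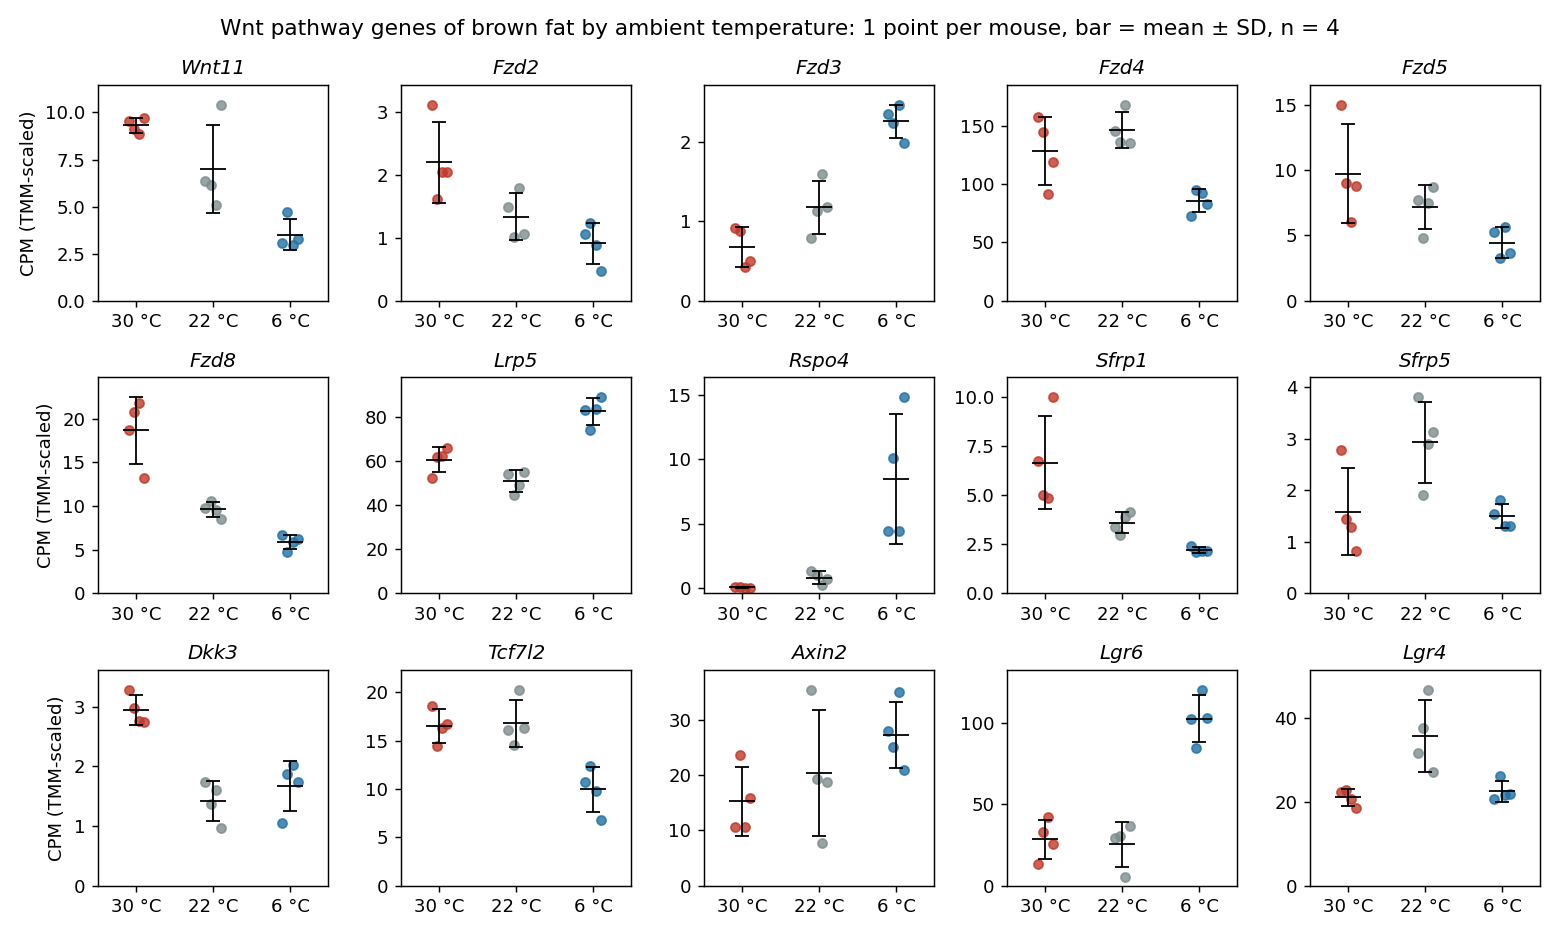
Level in each mouse (y axis, TMM-scaled CPM) of the 12 members with per-library values, Axin2 and the R-spondin receptors Lgr6 and Lgr4, at 30, 22 and 6 °C (x axis). Each point is 1 mouse, and the bars are the mean ± SD of 4 mice. Rspo4 rises from at most 0.102 CPM at 30 °C to between 4.39 and 14.9 CPM at 6 °C, Fzd8 and Sfrp1 step down at each temperature, and Sfrp5 and Lgr4 have their highest mean at 22 °C.

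The secreted antagonists had their lowest summed mean at 6 °C, and their makeup changed with temperature. The sums were not tested. The 10 genes summed to 5.30 ± 1.66 CPM per kilobase at 30 °C, 4.59 ± 1.01 at 22 °C and 2.96 ± 0.274 at 6 °C. Sfrp1 led at 30 °C with 29.3% ± 8.36 of the sum and took 18.4% ± 3.24 at 22 °C and 17.1% ± 2.35 at 6 °C. Sfrp5, which is made by fat cells and binds Wnt5a, took 15.7% ± 5.51, 33.5% ± 3.61 and 26.5% ± 2.80. Sfrp2 stayed between 25.9% and 27.0% on average.

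Sfrp1 (chr8:23411502-23449632) measured 6.71, 5.02, 4.85 and 9.99 CPM at 30 °C, 3.36, 2.98, 3.90 and 4.13 CPM at 22 °C and 2.395, 2.07, 2.16 and 2.15 CPM at 6 °C. The 3 groups did not overlap. It fell by 0.88 on the log2 scale from 30 to 22 °C (SE 0.21, edgeR adjusted p = 0.00476) and by 1.60 from 30 to 6 °C (SE 0.22, adjusted p = 5.46e-05). From 22 to 6 °C it fell by 0.72 (SE 0.22, adjusted p = 0.0245), a call that was lost without any 1 of 22 °C mice 3 and 4 and 6 °C mice 2, 3 and 4 (adjusted p from 0.0519 to 0.0659). The highest Sfrp1 level, in 30 °C mouse B, came from the library with the most fibroblast marker RNA, 5491 CPM against 2908 to 3280 CPM in the other 30 °C mice. The library with the next most, mouse A at 3280 CPM, had the lowest Sfrp1 level of that group, 4.85 CPM. Fibroblast markers fell with Sfrp1 between the groups, and their part in its fall was not tested.

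Dkk3, a member of the Dickkopf family that does not bind LRP5 or LRP6, was lower at both colder temperatures. It measured 3.29, 2.97, 2.76 and 2.74 CPM at 30 °C, 1.73, 1.37, 1.60 and 0.968 CPM at 22 °C and 1.06, 1.87, 2.02 and 1.73 CPM at 6 °C. All 30 °C mice lay above all others, and the 22 and 6 °C groups overlapped. The change was −1.04 on the log2 scale from 30 to 22 °C (SE 0.23, edgeR adjusted p = 0.00229) and −0.81 from 30 to 6 °C (SE 0.22, adjusted p = 0.00749). The difference of the steps was 1.27 (SE 0.40, adjusted p = 0.0315). It was lost without any 1 of 22 °C mice 2 and 4 and 6 °C mice 2 and 3 (adjusted p from 0.0562 to 0.104). Dkk2, which inhibits LRP6, fell from 0.999 ± 0.451 CPM at 30 °C to 0.476 ± 0.0379 at 6 °C, by 1.06 on the log2 scale (SE 0.32, adjusted p = 0.0136). Without 30 °C mouse 1, which was highest, the value was −0.72 (adjusted p = 0.0506), and with the muscle marker level as a covariate it was −0.81 (adjusted p = 0.102).

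Sfrp5 (chr19:42197971-42202252, minus strand) was highest at the middle temperature. It measured 2.78, 1.45, 1.29 and 0.819 CPM at 30 °C, 3.81, 1.91, 2.89 and 3.12 CPM at 22 °C and 1.54, 1.81, 1.31 and 1.31 CPM at 6 °C. All 22 °C mice lay above all 6 °C mice, but 30 °C mouse 1 lay within the 22 °C range. Sfrp5 rose by 0.89 on the log2 scale from 30 to 22 °C (SE 0.32, edgeR adjusted p = 0.0356) and fell by 0.97 from 22 to 6 °C (SE 0.32, adjusted p = 0.0334). The difference of the steps was −1.87 (SE 0.54, adjusted p = 0.02). These calls rest on few mice. The rise was lost without any 1 of 30 °C mice 2, A and B and 22 °C mice 1, 3 and 4 (adjusted p from 0.0585 to 0.0968) and with total-count scaling (adjusted p = 0.107). The fall was lost without any 1 of 22 °C mice 1, 3 and 4 and 6 °C mice 1, 3 and 4 (adjusted p from 0.0593 to 0.0852). The difference of the steps was lost without 22 °C mouse 1 (−1.58, adjusted p = 0.0691) or 22 °C mouse 4 (−1.81, adjusted p = 0.0513). Sfrp2 and Sfrp4 did not change in any pair. For Sfrp2 the log2 difference at 6 °C against 30 °C was −0.85 (SE 0.37, adjusted p = 0.0627), with means of 3.09 ± 1.66 and 1.71 ± 0.252 CPM, and 16.1% of its exon bases lie under a gene on the opposite strand.

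Inside the cell, Tcf7l2, a TCF factor that carries beta-catenin to DNA, fell while Axin2, a widely used target gene and feedback inhibitor of the pathway, did not pass the test. Tcf7l2 (chr19:55741820-55933654) measured 18.6, 14.4, 16.3 and 16.8 CPM at 30 °C, 16.1, 14.6, 20.3 and 16.3 CPM at 22 °C and 10.8, 12.4, 9.84 and 6.82 CPM at 6 °C. The 30 and 22 °C groups overlapped, and all 6 °C mice lay below both. It fell by 0.73 on the log2 scale from 30 to 6 °C (SE 0.16, edgeR adjusted p = 0.00189) and by 0.76 from 22 to 6 °C (SE 0.16, adjusted p = 0.00346). The difference of the steps was −0.79 (SE 0.27, adjusted p = 0.0451) and was lost without any 1 of 30 °C mice 2, A and B, 22 °C mice 1, 3 and 4 and 6 °C mice 1 and 3 (adjusted p from 0.0547 to 0.179).

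Axin2 (chr11:108920349-108950783) measured 10.7, 23.8, 10.7 and 15.9 CPM at 30 °C, 35.5, 19.3, 7.76 and 18.8 CPM at 22 °C and 28.0, 25.2, 35.0 and 20.9 CPM at 6 °C. The 22 °C group held both the highest and the lowest library, and 30 °C mouse 2 lay within the 6 °C range. Its log2 difference at 6 °C against 30 °C was 0.84 (SE 0.41, edgeR adjusted p = 0.104). The value passed the threshold without 30 °C mouse 2 (1.14, adjusted p = 0.0467), without 22 °C mouse 3 (0.85, adjusted p = 0.0376) and in a fit of these temperatures alone (0.89, adjusted p = 0.028).

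The remaining 19 members were removed by the filter on low counts. They are the ligands Wnt1, Wnt2, Wnt3, Wnt3a, Wnt7a, Wnt7b, Wnt8a, Wnt8b, Wnt9b, Wnt10a, Wnt10b and Wnt16, the receptor Fzd10, Rspo2 and Rspo3, and the antagonists Dkk1, Dkk4, Frzb and Wif1. The best covered among them, apart from Rspo3, were Frzb (at most 0.610 CPM) and Wnt10b (at most 0.576 CPM), the ligand known for blocking fat cell formation. Dkk4 had no count in any library, which allows up to 0.00820 CPM over all 12.

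Other genes of the pathway were listed by role. The list of Wnt lipid modification, transport and processing has 3 tested genes, among them Apcdd1, which is no secretion gene but a membrane protein that inhibits Wnt signalling and a known target. At 6 °C against 30 °C, where 31.5% of all tested genes fell and 25.3% rose, edgeR and limma voom called all 3 lower and DESeq2 called 1. Apcdd1 went from 21.1 ± 5.25 CPM at 30 °C to 11.7 ± 4.64 at 22 °C and 2.66 ± 0.700 at 6 °C, a fall by 2.99 on the log2 scale over the whole range (SE 0.31, edgeR adjusted p = 8.61e-06). For Wls, the carrier of Wnts to the cell surface, the log2 difference was −0.23 (adjusted p = 0.0497), a call lost in 18 of 26 alternatives, among them DESeq2 (adjusted p = 0.148) and the omission of any 1 library other than 22 °C mouse 3 and 6 °C mouse 1 (adjusted p from 0.05 to 0.147). It was singled out after its values were seen. For Porcn, the enzyme that attaches the lipid, it was −0.22 (adjusted p = 0.0446), a call lost in 19 of 26 alternatives, among them the omission of any 1 library other than 30 °C mouse A (adjusted p from 0.0532 to 0.13). From 22 to 6 °C Porcn fell by 0.42 (SE 0.086, edgeR adjusted p = 0.00267), a call lost in 0 of 26 alternatives. Its difference of the steps was −0.63 (SE 0.15, adjusted p = 0.0072).

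Of 13 other receptors and co-receptors tested, 3 rose and 9 fell at 6 °C against 30 °C (25.3% and 31.5% of all tested genes). Ryk, a Wnt receptor without an active kinase, rose with Znrf3 and Lgr6, from 39.9 ± 4.64 CPM to 69.6 ± 5.35 CPM (0.80 on the log2 scale, SE 0.085, edgeR adjusted p = 6.37e-06). Lrp4, a relative of Lrp5 that binds sclerostin, fell by 1.52 (SE 0.22, adjusted p = 8.32e-05) and Gpr124, the vascular partner of Wnt7 signalling, by 1.01 (SE 0.13, adjusted p = 3.7e-05). Of 4 tested genes in the list of other antagonists, 2 fell. One was Igfbp4, an IGF-binding protein that also inhibits Wnt signalling, by 0.90 (SE 0.24, adjusted p = 0.0071). The other was Cthrc1, which is known as a Wnt cofactor rather than an inhibitor, by 1.81 (SE 0.32, adjusted p = 3.61e-04).

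Of 30 cytoplasmic genes of the pathway, edgeR called 7 higher and 7 lower at 6 °C against 30 °C. Over all tested genes, edgeR called 25.3% higher and 31.5% lower. DESeq2 called 11 higher and 7 lower, and limma voom 7 and 8. Dvl3, a Dishevelled protein that relays the signal from Frizzled, went from 25.3 ± 2.81 CPM at 30 °C to 34.4 ± 2.77 at 22 °C and 55.4 ± 8.60 at 6 °C (1.13 on the log2 scale over the whole range, SE 0.12, edgeR adjusted p = 5.05e-06). Fbxw11, a subunit of the ubiquitin ligase for beta-catenin, rose by 0.62 (SE 0.069, adjusted p = 9.37e-06). Daam2, a partner of Dishevelled, fell by 0.91 (SE 0.097, adjusted p = 6.37e-06) and Ctnnbip1, which keeps beta-catenin from TCF, by 0.53 (SE 0.10, adjusted p = 8.32e-04). Ctnnb1, which encodes beta-catenin itself, had means of 382 ± 20.2, 325 ± 20.9 and 376 ± 10.2 CPM at 30, 22 and 6 °C, and its log2 difference at 6 °C against 30 °C was −0.02 (SE 0.070, adjusted p = 0.798). From 30 to 22 °C it fell by 0.24 (SE 0.070, adjusted p = 0.0149), a call lost without 22 °C mouse 4 (adjusted p = 0.0564). From 22 to 6 °C it rose by 0.21 (SE 0.070, adjusted p = 0.0322), a call lost with total-count scaling (adjusted p = 0.088) and without any 1 of 22 °C mouse 4 and 6 °C mice 2, 3 and 4 (adjusted p from 0.0582 to 0.103). Ctnnb1 was singled out for its role after its values were seen.

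Of 14 nuclear genes, 7 fell at 6 °C against 30 °C in edgeR and 0 rose (31.5% and 25.3% of all tested genes). At an unadjusted p under 0.05 the counts were 8 and 0, DESeq2 called 6 lower and 2 higher, and limma voom 8 lower and 0 higher. Tle2, a co-repressor that binds TCF factors, fell by 0.86 (SE 0.099, edgeR adjusted p = 1.18e-05) and Tcf7l1, a mainly repressive TCF factor, by 0.80 (SE 0.12, adjusted p = 1.03e-04). Of 9 tested target genes, 1 rose (Znrf3) and 3 fell at 6 °C against 30 °C (25.3% and 31.5% of all tested genes). Myc, the growth regulator, fell by 1.96 on the log2 scale (SE 0.24, edgeR adjusted p = 2.36e-05). At 22 °C against 30 °C, 1 rose and 5 fell (21.8% and 22.8% of all tested genes), and at 6 °C against 22 °C, 4 rose and 2 fell (16.9% and 17.4%). Ccnd1, which encodes cyclin D1, was lowest at 22 °C, with means of 33.6 ± 4.39, 8.88 ± 1.59 and 37.6 ± 4.59 CPM and a difference of the steps of 4.02 (SE 0.25, adjusted p = 4.52e-06). Cd44, an adhesion receptor, had means of 27.0 ± 12.9, 3.96 ± 1.24 and 17.6 ± 6.48 CPM. Both were singled out after their values were seen. The macrophage markers were also lowest at 22 °C. At 30 °C they summed to 529, 544, 1374 and 1683 CPM in mice 1, 2, A and B. Cd44 measured 16.3, 15.9, 41.3 and 34.6 CPM in these mice and Ccnd1 29.0, 38.2, 36.4 and 30.8 CPM. The part of macrophage RNA in the levels of either gene was not tested.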

How the data were processed

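RNA of interscapular brown fat from 12 mice was sequenced as 1 library each. The deposited values are unnormalised counts of reads for each Ensembl gene of the mouse, made by the authors. Per the submitters' processing notes, FastQC 0.10.1, STAR 2.4.2a and edgeR 3.14.0 were used, with GRCm38 and mm10 as builds, and what each did is not stated. How reads were counted, with which annotation and whether by strand, is not given in the sources used here. Gene positions (1-based) and exon lengths are from GENCODE M21 for GRCm38.

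Columns were matched to mice by title for 10 libraries and to 30 °C by letter alone for 2. The fit used edgeR 4.0.16 (R 4.3.3): filterByExpr, TMM scaling, 1 factor of 3 temperatures over all 12 libraries, glmQLFit with robust estimation and two-sided glmQLFTest, with Benjamini-Hochberg adjustment over 14870 genes. The difference of the steps subtracts the log2 fold change of the first step (30 to 22 °C) from that of the colder step (22 to 6 °C). Each standard error is the fold change on the log2 scale over the root of its F statistic. The p-values speak for the spread between these mice. The smallest total, 18290162 counts, sets the coarsest precision. The procedure was also run on simulated counts, with far fewer changed genes than were called here and the same spread for every gene. That run cannot show how the scaling behaves when 56.8% of tested genes are called, as at 6 °C against 30 °C.

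The members and the gene lists were chosen with earlier results of these data known. Values per library are given for members with an adjusted p under 0.05 in any pair of temperatures and a mean of at least 1 CPM in the highest group, and for Axin2. From each pathway list, up to 2 called genes per direction with the smallest p at 6 °C against 30 °C are named. Of the pathway genes listed, 8 stand in 2 lists.

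The fit was repeated with DESeq2 1.42.0, with voom (limma 3.58.1), without robust estimation, with RLE, total-count or upper-quartile scaling, with TMM that left out mitochondrial genes and Ucp1, without a filter, with a filter of at least 1 CPM in 4 or more libraries, with only the 2 temperatures compared, the mouse number as a block, leaving out each library or mice A and B, an adjusted p under 0.01 and a 2-fold threshold. The muscle marker covariate and the omission of 30 °C mouse 1 together with 22 °C mouse 3 were chosen after seeing the data.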

Additional observations from a re-analysis of the deposited data

Results flagged for a closer look

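Among the 84 groups of 4 mice formed by 28 tested members and 3 temperatures, 5 held a library that stood apart from the other 3 by Dixon's criterion, and chance alone gives about 1 in 20 groups. Of these, 4 are in 30 °C mouse 1: Fzd7 at 42.5 CPM, Fzd9 at 2.17 CPM, Wnt4 at 1.56 CPM and Wnt9a at 2.78 CPM, each above the other 30 °C mice. The same library had the most skeletal muscle marker RNA. The fifth is Wnt11 at 4.71 CPM in 6 °C mouse 2, above the 2.97 to 3.25 CPM of the other 6 °C mice and below all libraries at 22 and 30 °C.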

How the results depend on the processing

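Of 2200 values of named genes under alternatives, 2020 kept their direction and their side of the threshold, 177 lost the call, 3 gained it (all Axin2 from 30 to 6 °C) and 0 changed sign. Apart from this Axin2 value, only values called in the main fit were followed, so no other value could gain a call. Gains of other members appear only in counts. RLE scaling and DESeq2 each called 4 members higher from 30 to 6 °C (main 3), and other counts are given below. At 6 °C against 30 °C, Rspo4, Fzd2, Fzd3, Fzd4, Fzd5, Fzd8, Sfrp1, Tcf7l2 and Wnt11 kept an adjusted p under 0.05 in every alternative fit. A 2-fold threshold on the main fit left 2 members higher (main 3) and 6 lower (main 9) in this comparison. Fzd4 (−0.58 on the log2 scale) and Tcf7l2 (−0.73) fell short of that threshold. Counts of members moved as follows. With total counts alone, 16 were lower from 30 to 6 °C (main 9), and 1 was higher and 7 lower from 30 to 22 °C (main 3 and 4). From 30 to 22 °C, edgeR called 0 higher when only these temperatures were fitted (2 at an unadjusted p under 0.05; the filter then removed Rspo4) and 0 without mice A and B (1 unadjusted), while DESeq2 and limma voom called 3 on all libraries. At an adjusted p under 0.01, 1 was higher from 30 to 22 °C, 4 were lower from 22 to 6 °C (main 7), and the difference of the steps was above 0 for 1 (main 2) and below 0 for 0 (main 3; 3 at an unadjusted p under 0.05, and at the stricter threshold 2 in DESeq2 and 0 in limma voom). With a 2-fold threshold, 1 was higher and 1 lower from 30 to 22 °C, 1 higher (main 3) and 1 lower from 22 to 6 °C, and the steps gave 1 above and 1 below 0. With the muscle covariate, 4 were lower from 22 to 6 °C and 1 step difference was above 0, as was 1 without 30 °C mouse 1 and 22 °C mouse 3. Except for the thresholds, the cause of these moves was not tested. Leaving out 1 library gave 3 to 4 higher and 8 to 12 lower from 30 to 6 °C, 1 to 4 and 3 to 5 from 30 to 22 °C, 2 to 4 and 4 to 9 from 22 to 6 °C, and step differences of 1 to 2 above and 1 to 5 below 0. Depth limits the genes under 1 CPM, where a library of the smallest size holds few counts.

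Same-numbered mice did not deviate together: the correlation of their deviations ranged from −0.15 to 0.23 over 8 pairs, with 3 above 0.1, so the numbers were not taken to pair the samples. With the mouse number as a block, over the 10 numbered libraries, edgeR called 0 members higher from 30 to 22 °C (1 at an unadjusted p under 0.05), the steps gave 1 above and 1 below 0, and 23 of 85 named values lost the call, among them Lgr6 from 30 to 6 °C (adjusted p = 0.106), Dkk3 from 30 to 6 °C (0.0554), Igfbp4 from 30 to 6 °C (0.0526) and Rspo4 from 30 to 22 °C (0.0507).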

Other observations

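The deepest library, 22 °C mouse 3, held reads of the ligands Wnt3 and Wnt7a and of the antagonist Dkk1, which were nearly absent elsewhere. The ligand Wnt8b was higher there but was also found in other libraries. Wnt3, a ligand of the beta-catenin pathway, had 15 counts there and 1 count in the other 11 libraries together, or 0.177 CPM (exact Poisson 95% interval 0.0990 to 0.292) against 0.00356 CPM (9.01e-05 to 0.0198). Wnt7a, best known from the nervous system, had 12 counts against 2, or 0.142 CPM (0.0731 to 0.247) against 0.00712 CPM (8.62e-04 to 0.0257). Dkk1, the LRP6 inhibitor, had 7 counts against 1, or 0.0825 CPM (0.0332 to 0.170) against 0.00356 CPM. Wnt8b had 17 counts against 10, or 0.2004 CPM (0.117 to 0.321) against 0.0356 CPM (0.0171 to 0.0654). The intervals of the deep library and of the others do not overlap for these 4 genes, on a scale that divides by depth, and they cover counting error only. The genes were chosen after their counts were seen. The same library was the lowest of its group for Rspo4 (0.224 CPM), Axin2 (7.76 CPM) and Lgr6 (5.52 CPM), and it carries the library code 8846, whereas the remaining codes run from 7509 to 7520.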
